A study of Mus musculus with 24 samples.

Results

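Ribosome footprints of mouse Th1 cells restimulated for 4 h were compared with those of the same kind of cells at rest, at 0 h. The comparison uses 4 of the 24 libraries of the study: 2 footprint libraries at 4 h and 2 at 0 h, paired by replicate number. It covers the genes with a mean of at least 1 FPKM over these 4 libraries, which were 9307 of the 9420 genes in the deposited table. FPKM stands for fragments counted on a gene, scaled by its length and by the size of the library. The cells were CD4+ Th1 effector cells of the DO11.10 strain, whose transgenic T cell receptor recognises an ovalbumin peptide. Those at 4 h had been placed on plates coated with goat anti-hamster IgG with anti-CD3 at 1 µg/ml and anti-CD28 at 2.5 µg/ml, and those at 0 h had not. The study also holds footprints at 0.5, 1 and 2 h, total RNA, and newly made RNA labelled with 4-thiouridine.

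In ribosome profiling, RNA outside ribosomes is digested and the protected fragments are sequenced, so that the reads on a coding sequence count the ribosomes on it. A footprint level therefore combines how much of an mRNA is present with how many ribosomes each copy carries. Stimulation of the T cell receptor together with CD28 is known to switch on cytokine genes and to drive T cells out of rest into growth. TOP mRNAs, which encode ribosomal proteins and elongation factors and begin with a C followed by a run of pyrimidines, are known for being held off ribosomes in resting cells and loaded upon growth signals through mTOR and LARP1.

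The steps between low FPKM values corresponded to depths of 26.2 and 14.0 M reads at 4 h, and of 20.3 and 8.88 M reads at 0 h. Across genes the replicates correlated at r = 0.965 at 4 h and r = 0.959 at 0 h on the log2(FPKM + 1) scale. The lineage genes were present throughout. Cd3e, a chain of the T cell receptor complex, had 871 and 813 FPKM at 4 h, against 1135 and 939.9 FPKM at 0 h. Cd4 had 684 and 538 FPKM at 4 h, against 772 and 461 FPKM at 0 h, and Tbx21, the Th1 master regulator T-bet, had 166 and 136 FPKM at 4 h, against 149.7 and 113 FPKM at 0 h. None of these 3 genes passed the test, and only the groups of Cd3e did not overlap. What distinguishes replicate 1 from replicate 2 (animal, culture or library) is not stated, and the p-values therefore describe the scatter of these libraries, which may be technical.

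At an adjusted p below 0.05, 4483 genes (48.2%) changed (limma on log2(FPKM + 1), replicate number as a block, Benjamini-Hochberg adjustment over all 9307 genes). Footprints of 1990 genes (21.4%) were higher at 4 h and those of 2493 genes (26.8%) were lower. By at least 2-fold, 1003 genes rose and 1040 fell. By at least 8-fold, 63 rose and 18 fell. Without any test, both 4 h libraries lay above both 0 h libraries in 29.1% of genes and below them in 36.8%. Both replicate pairs moved the same way in all 4483 called genes. The estimate averages these 2 changes and their disagreement adds to its error, so this adds little beyond the call itself. The block mattered for the count: without it 2340 genes were called, all of them among the 4483. Leaving out the 0 h replicate 1 library lowered the count to 2827. The median change of all genes was -0.10 on the log2 scale, and the values below are not corrected for it. In bulk samples, a change in the share of cells that express a gene and a change in the amount per cell cannot be told apart.

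**Figure D1:**
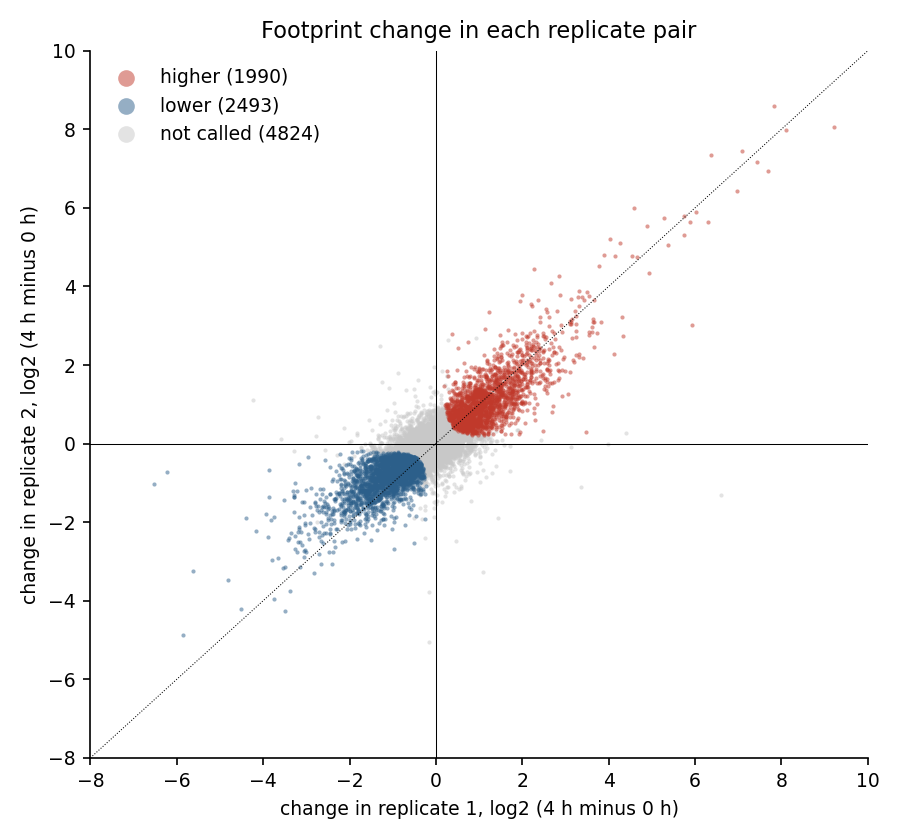
Each point is a gene, with its footprint change from 0 h to 4 h on the log2(FPKM + 1) scale in replicate 1 on the x axis and in replicate 2 on the y axis. Red marks the 1990 genes called higher, blue the 2493 called lower and grey those not called; the dotted line marks equal change in both pairs, and the 2 changes correlated across genes at r = 0.844.

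Cytokine and chemokine genes made up most of the largest rises. Of the 28 cytokine genes tested, 25 rose and 1 fell, with a median change of 4.06 on the log2 scale, and of the 8 chemokine genes 7 rose and none fell, with a median of 5.02. Ifng, the defining Th1 cytokine interferon gamma (GRCm38 chr10:118441046-118445892, plus strand), had 19196 and 11655 FPKM at 4 h, against 91.9 and 94.0 FPKM at 0 h. Its log2 change was 7.32 ± 0.53 (SE, n = 2 pairs, adjusted p = 0.000244 by limma). Scaled by coding length and the inferred depth, Ifng took an estimated 0.893% and 0.542% of the reads at 4 h, against 0.00427% and 0.00437% at 0 h.

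Il3 and Csf2, neighbouring genes on chromosome 11 that encode growth factors for myeloid cells, were near or at the floor at rest. Il3 (chr11:54265303-54267277, minus strand) had 595 and 266 FPKM at 4 h and was listed at 0 in both 0 h libraries, so no fold is given (adjusted p = 6.22e-05). Csf2 (chr11:54247271-54249667, minus strand), which encodes GM-CSF, had 306 and 454 FPKM at 4 h, against 0.12 and 0.79 FPKM at 0 h. The 0 h values of Csf2 correspond to an estimated 1.03 and 2.97 reads, so the size of its change rests on very few reads at rest (adjusted p = 2.85e-05). Il2, the T cell growth factor, had 124 and 161 FPKM at 4 h, and was listed at 0 in replicate 1 and had 0.88 FPKM in replicate 2 at 0 h (adjusted p = 2.85e-05). Tnf, the inflammatory cytokine, had 992 and 404 FPKM at 4 h, against 31.7 and 19.1 FPKM at 0 h, a log2 change of 4.63 ± 0.30 (adjusted p = 0.000198). In each of these genes both 4 h libraries lay above both 0 h libraries, as they did in 29.1% of all genes. Il3, Csf2 and Il2 were also among the largest changes, which were picked for not overlapping.

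The inflammatory chemokines Ccl3 and Ccl4 rose in the same range. Ccl3 had 1757 and 702 FPKM at 4 h, against 6.76 and 0.81 FPKM at 0 h (log2 change 8.21 ± 0.26, adjusted p = 2.85e-05). Ccl4 had 11960.2 and 3307 FPKM at 4 h, against 86.9 and 17.9 FPKM at 0 h (log2 change 7.27 ± 0.26, adjusted p = 4.20e-05). In both genes replicate 1 was the higher library at each time. Xcl1, which attracts cross-presenting dendritic cells, went the other way between replicates at 4 h, with 129.5 and 268 FPKM, against 0.57 and 0.66 FPKM at 0 h (log2 change 6.86 ± 0.28, adjusted p = 6.22e-05). Hbegf, a ligand of the EGF receptor, had 117 and 64.1 FPKM at 4 h, against 1.18 and 0.18 FPKM at 0 h (adjusted p = 0.000268). The 0 h values correspond to an estimated 3.96 and 2.01 reads for Xcl1, and 37.9 and 1.99 reads for Ccl3. The size of the Xcl1 change, and of the Ccl3 change in replicate 2, therefore rests on very few reads at rest.

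Cytokines of other helper lineages rose as well. Il4 had 106 and 48.7 FPKM at 4 h, against 0.35 FPKM and a listed 0 at 0 h (adjusted p = 0.000134). Il13 had 95.8 and 92.2 FPKM at 4 h, against 0.50 and 0.57 FPKM at 0 h (adjusted p = 0.000168). Both are hallmark Th2 cytokines. Gata3, the Th2 master regulator, was by contrast lower, at 36.1 and 68.0 FPKM at 4 h, against 67.0 and 145 FPKM at 0 h (log2 change -0.98 ± 0.14, adjusted p = 0.00219, and 0.221 without the block); the groups overlapped. Of 6 Th2 markers 4 rose and 1 fell, and of 4 Th17 markers tested 2 rose and none fell. Il17a, the Th17 cytokine, reached only 18.7 and 10.7 FPKM at 4 h, against a listed 0 and 0.24 FPKM at 0 h. Foxp3, the regulatory T cell factor, had 11.2 and 10.5 FPKM at 4 h, against 5.8 and 6.97 FPKM at 0 h (adjusted p = 0.0155, 0.0516 without the block and up to 0.0794 with 1 library left out).

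**Figure D2:**
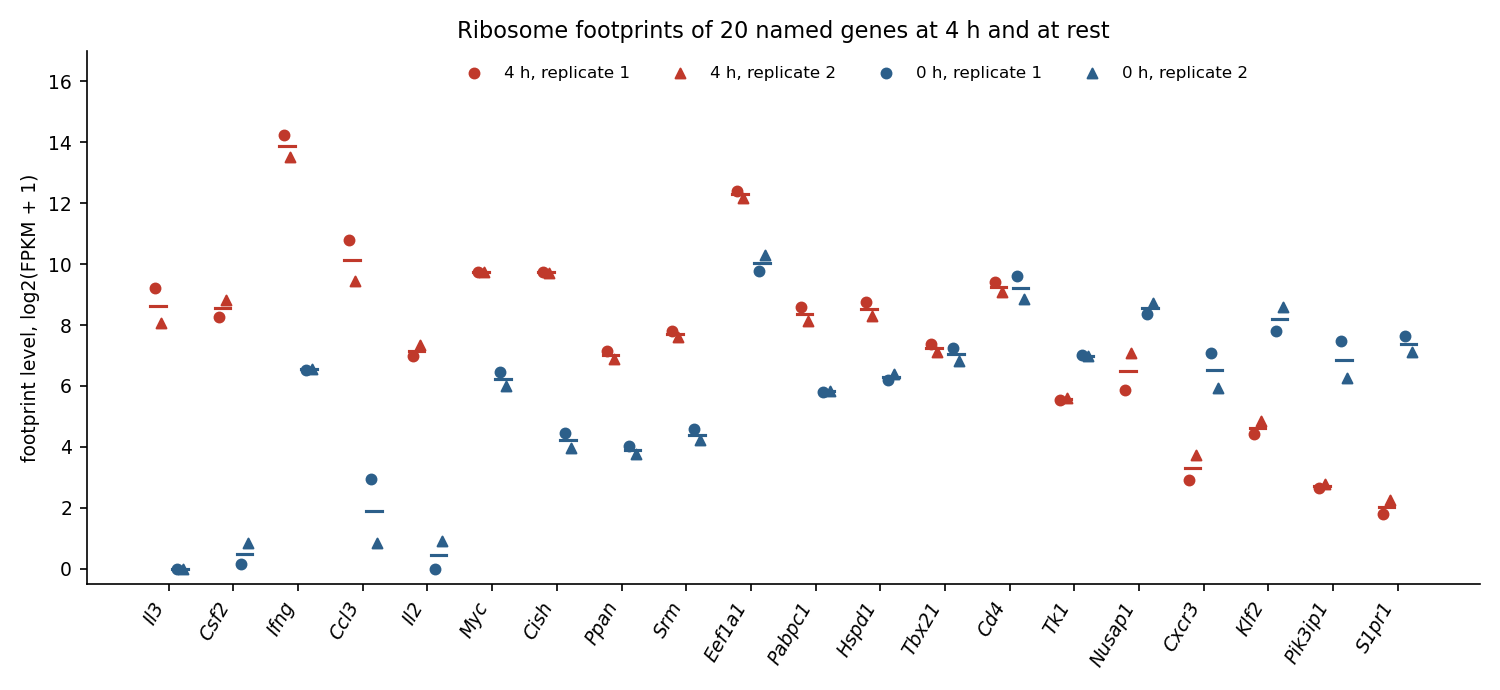
Footprint levels, log2(FPKM + 1), of 20 named genes in each library: red for 4 h and blue for 0 h, circles for replicate 1 and triangles for replicate 2, with a bar at the mean of each group. The 2 times do not overlap in any gene drawn except Tbx21 and Cd4; levels of different genes are set per kilobase.

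Transcription factors and brakes of activation were higher as well. Of 21 immediate early factors 17 rose and 2 fell (median 2.03), and of 24 feedback inhibitors 19 rose and 1 fell (median 1.48; 12 rose without the block). Nr4a3, an orphan nuclear receptor induced by antigen receptor signalling, had 50.1 and 89.6 FPKM at 4 h, against 1.67 and 1.65 FPKM at 0 h (log2 change 4.68 ± 0.37, adjusted p = 0.000315). Atf3, a stress-inducible factor, had 35.9 and 66.1 FPKM at 4 h, against 1.09 and 1.44 FPKM at 0 h (adjusted p = 8.34e-05). Myc, the driver of cell growth, had 863 and 851 FPKM at 4 h, against 87.2 and 62.9 FPKM at 0 h, a log2 change of 3.51 ± 0.27 (adjusted p = 0.000281). Its replicates differed little next to the change.

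Among the brakes, Cish, a SOCS-family inhibitor of cytokine receptor signalling, had 862 and 842 FPKM at 4 h, against 21.0 and 14.7 FPKM at 0 h (log2 change 5.52 ± 0.36, adjusted p = 0.000198). Rgs16 and Rgs1 both shorten G protein signalling downstream of chemokine receptors. Rgs16 had 378 and 234 FPKM at 4 h, against 5.38 and 3.72 FPKM at 0 h (adjusted p = 0.000130), and Rgs1 had 2302 and 1273 FPKM at 4 h, against 182 and 101 FPKM at 0 h (adjusted p = 0.000166). Socs1, a further SOCS-family member, had 87.3 and 118 FPKM at 4 h, against 15.8 and 21.0 FPKM at 0 h (adjusted p = 0.000403).

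In the NF-kB list 14 of 20 genes rose and 2 fell (median 1.395); none fell without the block or without the 0 h replicate 1 library. Nfkbid, a nuclear inhibitor of the family, had 143 and 65.9 FPKM at 4 h, against 10.8 and 7.54 FPKM at 0 h (adjusted p = 0.000412). Nfkb2, which encodes p100, had 128 and 118 FPKM at 4 h, against 31.5 and 15.9 FPKM at 0 h (adjusted p = 0.000642). Bcl2l1, the survival gene Bcl-xL, had 270.1 and 219.6 FPKM at 4 h, against 21.1 and 30 FPKM at 0 h (log2 change 3.22 ± 0.26, adjusted p = 0.000336). In the Bcl2 family as a whole 5 of 13 genes rose and 3 fell, or 1 without the 0 h replicate 1 library.

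Lineage factors split. Of 25 genes 10 rose and 13 fell, or 6 and 5 without the block. Irf4, needed for effector differentiation, had 1113 and 1294 FPKM at 4 h, against 149.7 and 246 FPKM at 0 h (log2 change 2.64 ± 0.26, adjusted p = 0.000539). Irf8 had 440.0 and 427 FPKM at 4 h, against 64.1 and 67.1 FPKM at 0 h (adjusted p = 0.000336). Tcf7, Lef1 and Bcl6 were lower at 4 h. Tcf7, which encodes TCF-1 and is known from memory and stem-like T cells, had 2.17 and 13.7 FPKM at 4 h, against 28.7 and 99.5 FPKM at 0 h (log2 change -3.0 ± 0.17, adjusted p = 0.000145; 0.0834 without the block), and replicate 2 was higher at both times. Its partner Lef1 had 58.9 and 79.5 FPKM at 4 h, against 226 and 285 FPKM at 0 h (log2 change -1.88 ± 0.16, adjusted p = 0.000372). Bcl6, the follicular helper factor, had 1.00 and 2.32 FPKM at 4 h, against 10.3 and 11.9 FPKM at 0 h (adjusted p = 0.000372).

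In the costimulatory list 10 of 17 genes rose and 4 fell (6 and 2 without the block, and 2 lower without the 0 h replicate 1 library). Tnfrsf9 (4-1BB) had 1893 and 2390.5 FPKM at 4 h, against 149.9 and 264 FPKM at 0 h (log2 change 3.41 ± 0.24, adjusted p = 0.000223). Tnfrsf4 (OX40) had 738 and 789.9 FPKM at 4 h, against 76.5 and 95.0 FPKM at 0 h (adjusted p = 0.000134). Il2ra, the high-affinity chain of the interleukin 2 receptor, had 2856 and 3252 FPKM at 4 h, against 617 and 606 FPKM at 0 h (adjusted p = 0.000526). Crtam, an adhesion receptor of cytotoxic CD4+ cells, had 24.9 and 42.9 FPKM at 4 h, against 0.88 and 0.91 FPKM at 0 h (adjusted p = 0.000145).

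Of 10 checkpoint receptors 4 rose and 1 fell; without the block 1 rose, and 3 fell without the 4 h or the 0 h replicate 2 library. Havcr2 (TIM-3) had 127 and 96.7 FPKM at 4 h, against 11.8 and 7.58 FPKM at 0 h (log2 change 3.41 ± 0.15, adjusted p = 8.97e-05). Tigit differed more between replicate numbers than between times, with 174 and 57.02 FPKM at 4 h, against 78.5 and 27.6 FPKM at 0 h (adjusted p = 0.00143, and 0.350 without the block). In the T cell receptor signalling list 6 of 26 genes rose and 7 fell, shares close to or at those of all genes. Without the block, and likewise without the 0 h replicate 1 library, 2 rose and 4 fell, and without the 0 h replicate 2 library, or without either 1 h library, 2 rose.

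The quiescence and homing list moved down as a group: 18 of 23 genes fell and 1 rose, with a median of -1.57. S1pr1, the sphingosine 1-phosphate receptor by which T cells leave lymph nodes (chr3:115710433-115715072, minus strand), had the largest fall of the named genes. It had 2.45 and 3.73 FPKM at 4 h, against 199.8 and 138 FPKM at 0 h (log2 change -5.37 ± 0.25, adjusted p = 0.000101). Klf2, the factor that activates S1pr1, had 20.2 and 27.9 FPKM at 4 h, against 221 and 386 FPKM at 0 h (log2 change -3.57 ± 0.19, adjusted p = 0.000140). In both genes the groups were far apart, and both were also among the largest changes, which were picked for not overlapping.

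Pik3ip1, an inhibitor of phosphoinositide 3-kinase, had 5.30 and 5.96 FPKM at 4 h, against 177 and 75.7 FPKM at 0 h (log2 change -4.14 ± 0.30, adjusted p = 0.000265). Tsc22d3, the glucocorticoid-induced leucine zipper, had 5.92 and 6.89 FPKM at 4 h, against 92.7 and 122 FPKM at 0 h (adjusted p = 0.000128). Il7r, the receptor for the survival cytokine interleukin 7, had 97.4 and 63.0 FPKM at 4 h, against 582 and 180.0 FPKM at 0 h (log2 change -2.03 ± 0.26, adjusted p = 0.00140, and 0.0817 without the block). Rasa3, a Ras and Rap GTPase activator, had 20.1 and 25.6 FPKM at 4 h, against 267 and 200.2 FPKM at 0 h (adjusted p = 0.000268). Vipr1, a receptor for vasoactive intestinal peptide, had 1.07 and 1.24 FPKM at 4 h, against 27.9 and 16.4 FPKM at 0 h (adjusted p = 0.000200).

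Chemokine and cytokine receptors fell more often than they rose: 13 of 26 fell and 6 rose, or 6 and 3 without the block. Over all genes falls were also the more frequent, at 26.8% lower and 21.4% higher, or 1206 and 1134 of 9307 genes without the block. The share of these receptors that rose was close to that of all genes. Cxcr3, the receptor that guides Th1 cells into inflamed tissue, had 6.57 and 12.2 FPKM at 4 h, against 136 and 60.5 FPKM at 0 h (log2 change -3.20 ± 0.41, adjusted p = 0.00134). Cxcr4, the receptor for CXCL12, had 19.9 and 30.7 FPKM at 4 h, against 178 and 88.0 FPKM at 0 h (log2 change -2.29 ± 0.35, adjusted p = 0.00249). Among genes outside these lists, Nod1, a sensor of bacterial peptidoglycan, had 1.10 and 1.44 FPKM at 4 h, against 23.5 and 21.0 FPKM at 0 h (adjusted p = 0.000140). Aqp3, a water and glycerol channel, had 3.11 and 5.69 FPKM at 4 h, against 45.2 and 57.8 FPKM at 0 h (adjusted p = 0.000115).

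**Figure D3:**
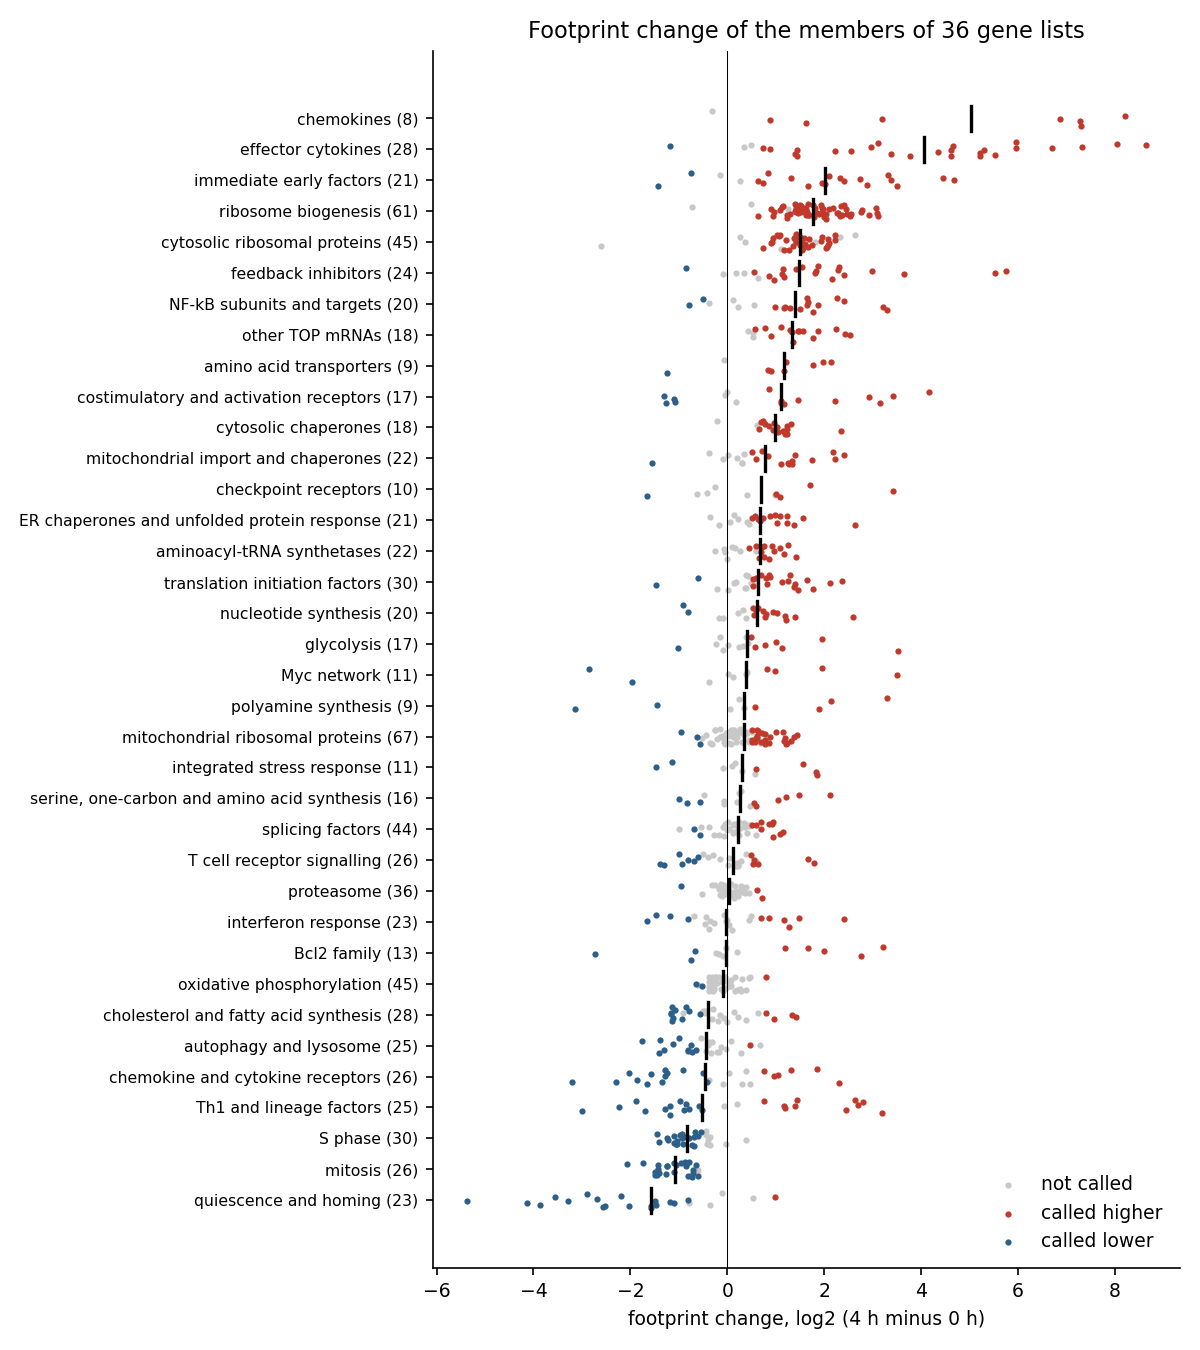
Footprint change on the log2(FPKM + 1) scale (x axis) of each tested member of 36 gene lists, ordered by their median, with the number tested in brackets. Red points were called higher, blue ones lower and grey ones not called, and the black bar is the list's median; chemokines (median 5.02) lie at the top and quiescence and homing genes (median -1.57) at the bottom.

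The protein synthesis machinery rose broadly, and total RNA is given beside its footprints. Of 79 cytosolic ribosomal protein genes listed, 48 had deposited values and 45 were tested. Of these 45, 38 were called higher and none lower, with a median change of 1.503. The change was above 0 in 44 of them, and the lowest was -2.61. Without the block 25 rose and none fell. With only the 0 h and 4 h libraries and the block, 40 rose and 1 fell. Of 18 other TOP mRNAs 15 rose and none fell, with a median of 1.35. Among 61 ribosome biogenesis genes 58 rose and none fell, with a median of 1.77. Together the reads on the 48 ribosomal protein genes with deposited values took an estimated 1.79% in each 4 h library, against 0.554% and 0.747% at 0 h.

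Eef1a1, the elongation factor that delivers aminoacyl-tRNA (chr9:78478449-78489151, minus strand), had 5442 and 4578 FPKM at 4 h, against 875 and 1253 FPKM at 0 h. Its log2 change was 2.25 ± 0.29 (adjusted p = 0.00143). In total RNA the same gene had 3851 and 3927 FPKM at 4 h, against 4183 and 4434 FPKM at 0 h. Pabpc1, the poly(A)-binding protein, had 385 and 279.6 FPKM of footprints at 4 h, against 55.2 and 56.1 FPKM at 0 h (log2 change 2.54 ± 0.17, adjusted p = 0.000214). Its total RNA was 74.5 and 100.0 FPKM at 4 h, against 76.6 and 120.3 FPKM at 0 h. In both genes the footprint groups were far apart, and total RNA at 4 h was no higher than at 0 h in the same replicate.

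Eef1b2, the exchange factor of Eef1a1, had 1536 and 1166 FPKM of footprints at 4 h, against 216 and 281 FPKM at 0 h (log2 change 2.44 ± 0.23, adjusted p = 0.000508), with total RNA at 358 and 289.9 FPKM at 4 h and 279 and 281 FPKM at 0 h. Ribosomal protein genes have many near-identical pseudogene copies, and how reads that match several copies were counted is not given in the sources used here. Rpl10, Rpl30, Rpl35 and Rps18, named after their values were seen, were very low or differed strongly between replicates and were not called.

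The difference between the footprint change and the total RNA change was tested as an interaction over 8 footprint and 6 total RNA libraries and 9027 genes. By the adjusted p, 2 genes (0.0222%) had a larger and 1 gene (0.0111%) a smaller footprint change, and none of them was in either list. At an unadjusted p below 0.05, 350 genes (3.88%) had a larger footprint change and 150 (1.66%) a smaller one. Among them were 33 of the 45 ribosomal protein genes and 13 of the 18 other TOP mRNAs, all with the larger footprint change. With 1 library left out, the 33 came to between 24 and 35 and the 13 to between 9 and 16. The median difference was 1.47 for ribosomal proteins and 1.17 for the other TOP mRNAs, against 0.00 for all genes. Pabpc1 (2.69, adjusted p = 0.0708) and Eef1b2 (2.23, adjusted p = 0.0852) came close to the threshold without passing it. The median total RNA change was 0.02 for ribosomal protein genes and 0.00 for the other TOP mRNAs.

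Ribosome biogenesis genes differed from this in their total RNA, whose median change was 1.53 beside a footprint median of 1.77; of these 61 genes, 7 had a larger and 1 a smaller footprint change at an unadjusted p below 0.05, the 7 coming to between 3 and 13 with 1 library left out. Polr1b, a subunit of RNA polymerase I, had 33.2 and 28.9 FPKM of footprints at 4 h, against 2.90 and 2.65 FPKM at 0 h (log2 change 3.08 ± 0.15, adjusted p = 0.000115). Its total RNA was 20.1 and 14.8 FPKM at 4 h, against 2.17 and 1.55 FPKM at 0 h. Ppan, a factor of large subunit assembly, had 140.5 and 118 FPKM of footprints at 4 h, against 15.4 and 12.6 FPKM at 0 h (log2 change 3.12 ± 0.17, adjusted p = 0.000145). Gnl3 (nucleostemin), a nucleolar GTPase, had 151 and 124 FPKM at 4 h, against 16.8 and 14.0 FPKM at 0 h (adjusted p = 0.000109). In each of the 3 genes both 4 h libraries lay above both 0 h libraries.

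**Figure D4:**
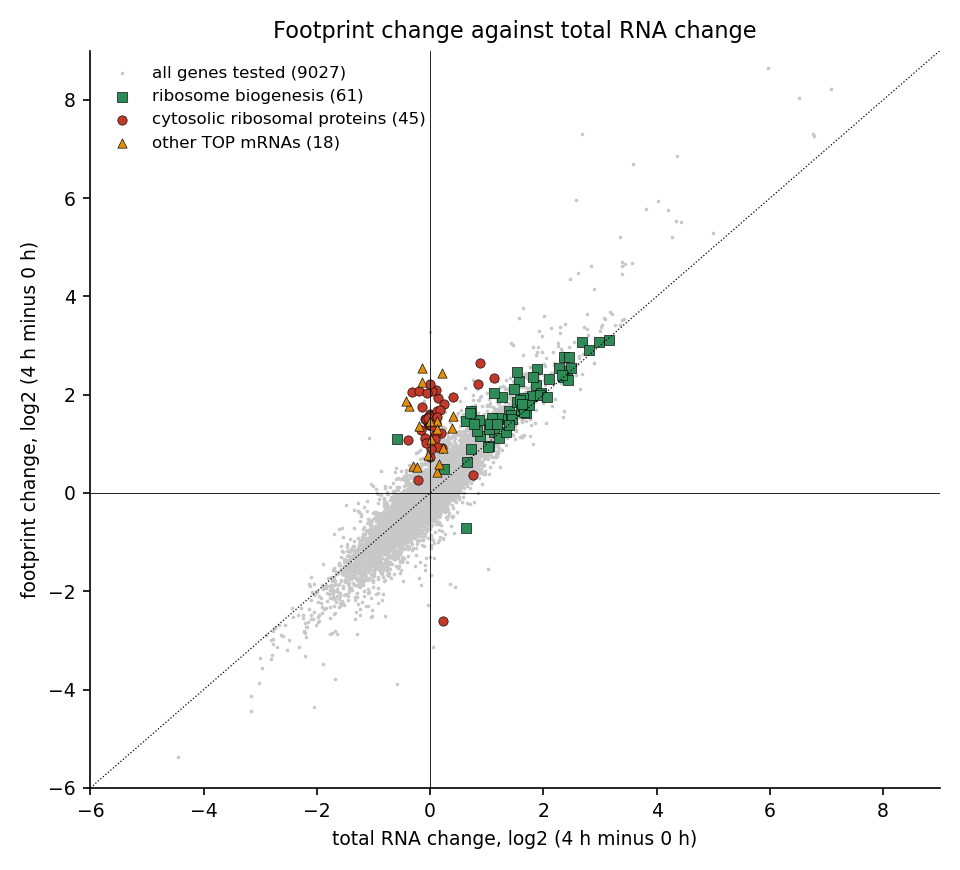
Footprint change (y axis) against total RNA change (x axis) at 4 h, both log2(FPKM + 1), for 9027 genes in grey; green squares are 61 ribosome biogenesis genes, red circles 45 ribosomal protein genes and orange triangles 18 other TOP mRNAs. The dotted line marks equal change. By their medians, ribosomal protein and other TOP genes lie above it near 0 on the x axis (median total RNA change 0.02 and 0.00), and biogenesis genes lie close to it. Single ribosomal protein genes depart from this, with total RNA changes from -0.395 to 1.14 and a lowest footprint change of -2.61.

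The start sites of these genes were read from RefSeq (GRCm38.p6) to see whether the letters of a TOP are there. The search was for a C followed by at least 7 further C or T within 25 bases on either side of the annotated start, on the transcribed strand only. Such a run was found in 17 of 32 ribosomal protein genes and 6 of 12 other TOP genes that had a start in the table. Of all tested genes that had a start, 18.5% held a run at any of their starts. Counted by start and not by gene, 15.5% of all starts held one. Within the ribosomal protein list the median change was 1.49 with a run and 1.54 without, and among the other TOP mRNAs it was 1.12 with and 1.39 without. Outside both lists it was -0.14 with and -0.10 without. The windows printed here hold 30 bases around the start, 15 on each side, read in the direction of transcription, for 5 TOP genes that hold a run (in capitals) and for 3 strongly raised genes of other groups that hold none.
Eef1a1, chr9:78481710-78481739, minus strand: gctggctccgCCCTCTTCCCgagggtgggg
Rps26, chr10:128626492-128626521, minus strand: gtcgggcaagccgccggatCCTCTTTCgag
Eif3f, chr7:108934400-108934429, plus strand: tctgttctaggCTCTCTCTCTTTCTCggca
Rps9, chr7:3704026-3704055, plus strand: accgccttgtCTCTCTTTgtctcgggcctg
Rpl7a, chr2:26910792-26910821, plus strand: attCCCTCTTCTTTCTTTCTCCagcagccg
Ifng, chr10:118441031-118441060, plus strand: cagagaggtgcaggctatagctgccatcgg
Il3, chr11:54267265-54267294, minus strand: tcctgtggcttcttcagaaccccttggagg
Ppan, chr9:20888160-20888189, plus strand: caggaagtgggaagagttacgagccgcgtg

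The 5 genes printed with a run were picked from list members called higher, among those with the largest changes. They rose by 2.25 (Eef1a1), 2.06 (Rps26), 1.78 (Eif3f), 1.75 (Rps9) and 1.69 (Rpl7a) on the log2 scale. Because of this choice, their rises say nothing about the run. None of the 5 runs began at the annotated start. Their first bases lay at -5 (Eef1a1), 5 (Rps26), -4 (Eif3f), -5 (Rps9) and -12 (Rpl7a), where negative positions are upstream of it. A run of such letters is a description of the window, and its absence says only that these letters are not there.

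Other parts of the translation and growth machinery moved by smaller amounts. Of 30 initiation factors 18 rose and 2 fell (median 0.64; 11 rose without the 0 h replicate 1 library). Eif1a, which helps ribosomes find the start codon, had 371 and 370.0 FPKM at 4 h, against 61.0 and 81.7 FPKM at 0 h (log2 change 2.38 ± 0.17, adjusted p = 0.000241). Of 22 aminoacyl-tRNA synthetases 14 rose and none fell, but 5 rose without the block and 6 without the 0 h replicate 1 library. Iars, which charges isoleucine tRNA, had 66.8 and 69.2 FPKM at 4 h, against 18.2 and 33.5 FPKM at 0 h (adjusted p = 0.00211).

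Mitochondrial ribosomal proteins showed a median change of 0.34, with 25 of 67 genes higher and 3 lower; 12 rose without the block and 10 without the 0 h replicate 1 library, and 5 fell without the 4 h replicate 1 library. Mrps6, of the small mitochondrial subunit, had 260.0 and 242 FPKM at 4 h, against 113 and 73.5 FPKM at 0 h (log2 change 1.45 ± 0.18, adjusted p = 0.00119). Mitochondrial import factors and chaperones rose in 14 of 22 genes and fell in 1, or rose in 9 both without the block and without the 0 h replicate 1 library. Hspd1, the matrix chaperonin, had 431 and 310.1 FPKM at 4 h, against 72.0 and 82.5 FPKM at 0 h (log2 change 2.23 ± 0.23, adjusted p = 0.000618).

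Few oxidative phosphorylation and proteasome genes were called. Of 45 oxidative phosphorylation genes 1 rose and 2 fell, with a median of -0.09. Leaving out the 4 h replicate 2 library gave 4 and 4. Of 36 proteasome genes 2 rose and 1 fell, with a median of 0.04; without the 4 h replicate 2 library 7 rose.

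Amino acid supply and metabolism rose in part. Among amino acid transporters 7 of 9 rose and 1 fell; without the block 4 rose. Slc1a5, a glutamine transporter, had 328 and 259 FPKM at 4 h, against 69.2 and 61.8 FPKM at 0 h (log2 change 2.14 ± 0.15, adjusted p = 0.000229). Slc7a1, an importer of arginine and lysine, had 142 and 153 FPKM at 4 h, against 38.3 and 35.0 FPKM at 0 h (adjusted p = 0.000281). Serine and one-carbon enzymes rose in 6 of 16 genes and fell in 3, or in 4 and 1 without the block. Shmt1, the cytosolic serine hydroxymethyltransferase, had 111 and 76.5 FPKM at 4 h, against 19.0 and 21.9 FPKM at 0 h (adjusted p = 0.000542), and Mthfd2, its mitochondrial pathway partner, had 161 and 157 FPKM at 4 h, against 60.0 and 52.9 FPKM at 0 h (adjusted p = 0.000552).

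In nucleotide synthesis 13 of 20 genes rose and 2 fell; 7 rose without the block, 7 without the 4 h replicate 1 library and 5 without the 0 h replicate 1 library. Ctps, which makes CTP, had 108 and 68.6 FPKM at 4 h, against 17.9 and 9.99 FPKM at 0 h (log2 change 2.59 ± 0.15, adjusted p = 0.000145). Srm, the spermidine synthase, had 224 and 194 FPKM at 4 h, against 23.0 and 17.7 FPKM at 0 h (log2 change 3.31 ± 0.14, adjusted p = 8.34e-05). In its list, polyamine synthesis, 4 of 9 genes rose and 2 fell, with 1 higher without the block and 2 without the 0 h replicate 1 library. In glycolysis 7 of 17 genes rose and 1 fell, with 2 higher without the block and 4 without the 0 h replicate 2 library. Hk2, the inducible hexokinase, had 306 and 214 FPKM at 4 h, against 14.2 and 31.4 FPKM at 0 h (log2 change 3.53 ± 0.38, adjusted p = 0.000737).

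Protein folding genes rose in the cytosol and in the endoplasmic reticulum. Of 18 cytosolic chaperones 16 rose and none fell (median 0.99; 8 rose without the 0 h replicate 1 library). Hsph1, a partner of HSP70, had 137 and 91.3 FPKM at 4 h, against 29.1 and 15.4 FPKM at 0 h (log2 change 2.34 ± 0.15, adjusted p = 0.000190). Of 21 endoplasmic reticulum genes 14 rose and none fell, with 6 higher without the block and 9 without the 0 h replicate 1 library. Xbp1, the factor of the unfolded protein response, had 829.6 and 865 FPKM at 4 h, against 149 and 123 FPKM at 0 h (log2 change 2.64 ± 0.24, adjusted p = 0.000414), and Hspa5, the chaperone BiP, had 1809 and 1035 FPKM at 4 h, against 523 and 407 FPKM at 0 h (adjusted p = 0.00143).

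Cell cycle genes fell as groups, and sterol and fatty acid synthesis genes were mixed. Of 28 cholesterol and fatty acid synthesis genes 10 fell and 4 rose (median -0.39), beside 26.8% lower and 21.4% higher for all genes; 4 fell without the block and 5 without the 0 h replicate 2 library. Mvk, mevalonate kinase, had 2.94 and 5.23 FPKM at 4 h, against 6.33 and 15.6 FPKM at 0 h (adjusted p = 0.00265, and 0.134 without the block). Of 30 S phase genes 22 fell and none rose (median -0.82), and of 26 mitosis genes 25 fell and none rose (median -1.07). Tk1, thymidine kinase, had 45.1 and 47.2 FPKM at 4 h, against 129 and 125 FPKM at 0 h (log2 change -1.44 ± 0.15, adjusted p = 0.000643). Mcm6, of the replicative helicase, had 99.9 and 83.2 FPKM at 4 h, against 230.1 and 259 FPKM at 0 h (adjusted p = 0.00187). Nusap1, a spindle protein, had 57.7 and 134 FPKM at 4 h, against 332 and 425 FPKM at 0 h (log2 change -2.08 ± 0.23, adjusted p = 0.000855). In these 3 cell cycle genes both 4 h libraries lay below both 0 h libraries.

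The remaining lists were mixed, beside 21.4% higher and 26.8% lower for all genes. Splicing factors and interferon response genes rose in shares close to that of all genes. Interferon response genes rose in 6 of 23 and fell in 4 (3 higher without the block and 7 lower without the 4 h replicate 1 library), and splicing factors rose in 10 of 44 and fell in 2 (6 higher without the block or without the 0 h replicate 2 library, and 19 without the 4 h replicate 2 library). The integrated stress response rose in 4 of 11 genes and fell in 2, and the Myc network rose in 4 of 11 and fell in 2 (2 higher without the block). Atf4, the factor of the integrated stress response, had 131 and 116 FPKM at 4 h, against 39.4 and 43.5 FPKM at 0 h (adjusted p = 0.000555). Autophagy and lysosome genes fell in 11 of 25 and rose in 1, with 6 lower without the block and 5 without the 0 h replicate 1 library.

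The changes at the other times share the 0 h libraries with those at 4 h; 0.5 and 2 h have 1 library each and no test. In replicate 1 the ribosomal protein list had a median change from 0 h of 0.96 at 0.5 h, 1.29 at 1 h, 1.56 at 2 h and 1.72 at 4 h. Ribosome biogenesis genes had medians of 0.67, 0.58, 1.16 and 2.10 at the same times, and both lists were highest at 4 h. In replicate 2 the medians at 1 h and 4 h were 0.71 and 1.20 for ribosomal proteins, and 0.35 and 1.52 for biogenesis genes. Immediate early factors were at 0.66, 2.39, 3.29 and 1.62 in replicate 1, with their highest median there at 2 h. In replicate 2, which has 1 h and 4 h, their medians were 1.99 and 2.50. The order of 1 h and 4 h thus differed between the replicates. Sterol and fatty acid synthesis genes were at 1.07, 0.96, 0.43 and -0.12 in replicate 1, above 0 at the early times and below it at 4 h.

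Courses of single genes differed from their list's median in places. Eef1a1 in replicate 1 had 875 FPKM at 0 h, 2673 at 0.5 h, 3830.2 at 1 h, 4848 at 2 h and 5442 at 4 h. Fos, the immediate early AP-1 subunit, was highest at 1 h and not at 2 h: it had 2.84 FPKM at 0 h, 59.3 at 0.5 h, 238 at 1 h, 36.5 at 2 h and 9.77 at 4 h in that replicate. At 4 h Fos still exceeded its 0 h level, with 9.77 and 23.9 FPKM at 4 h, against 2.84 and 3.64 FPKM at 0 h (log2 change 1.96 ± 0.28, adjusted p = 0.00201). Egr1, a zinc finger factor of the same early class, had 40.1 and 69.5 FPKM at 4 h, against 8.73 and 9.53 FPKM at 0 h (adjusted p = 0.00345). S1pr1 in replicate 1 had 199.8 FPKM at 0 h, 107 at 0.5 h, 84.3 at 1 h, 13.3 at 2 h and 2.45 at 4 h.

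**Figure D5:**
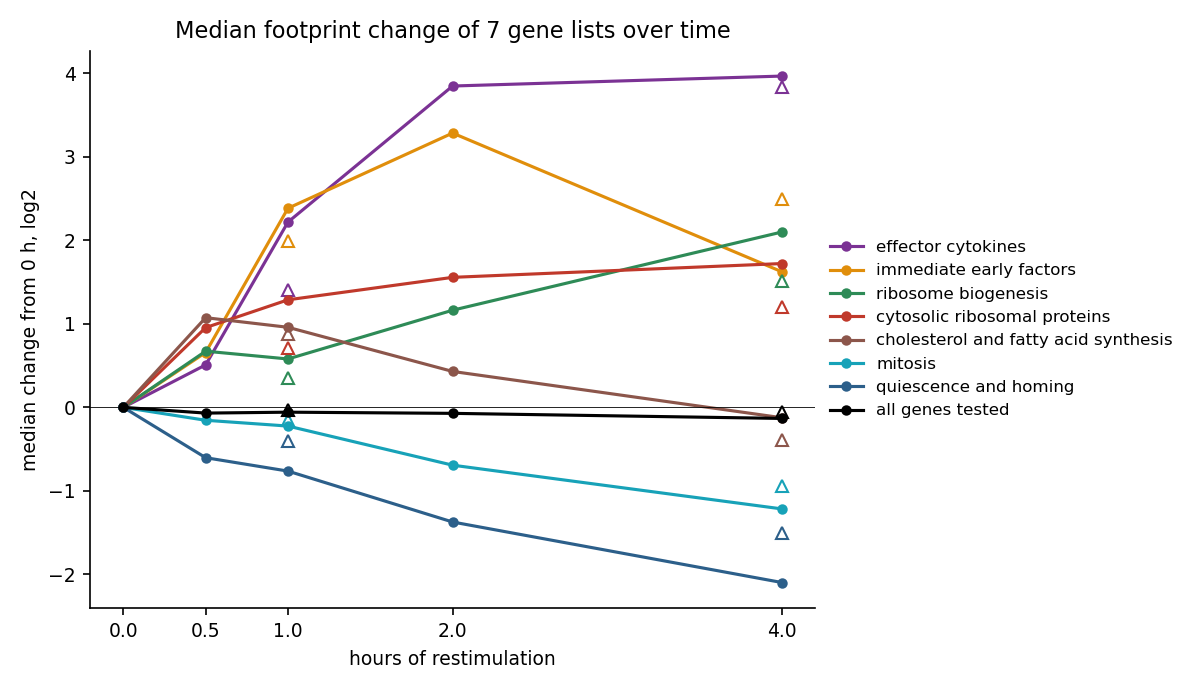
Median footprint change from 0 h on the log2(FPKM + 1) scale (y axis) of 7 gene lists and of all genes tested, by hours of restimulation (x axis). Lines and filled circles are replicate 1 and open triangles replicate 2, which has 1 h and 4 h. In replicate 1, ribosomal protein genes are at 0.96 and biogenesis genes at 0.67 by 0.5 h. Both reach their highest median at 4 h, at 1.72 and 2.10.

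Markers of other cells and of T cell lineages were counted as well, beside 21.4% higher and 26.8% lower for all genes. Of 4 B cell markers tested, of 8 listed, 3 fell, and their summed level was 6.50 and 7.39 FPKM at 4 h, against 62.9 and 16.96 FPKM at 0 h. Of 4 dendritic cell and antigen presentation markers tested, of 10 listed, 3 fell, with sums of 125 and 97.6 FPKM at 4 h, against 359 and 134 FPKM at 0 h. Of 5 macrophage and monocyte markers tested, of 10 listed, 2 fell, and Ly6c2, which activated T cells also express, made up nearly all of their sum. Without the block none of these calls held, and the highest sums were in the 0 h replicate 1 library. Of 4 NK cell markers 1 rose and 2 fell, of 6 CD8 T cell markers 2 rose and 1 fell, of 6 regulatory T cell markers 3 rose, and of 6 follicular helper markers 3 rose and 3 fell. Of 8 Th1 markers 1 rose and 3 fell, and of 8 general T cell markers 1 rose and 2 fell. With so few members per list, no result about a cell type is drawn from these counts. Without the block no CD8 or general T cell marker was called, no follicular helper marker rose and 2 fell, and 1 NK cell marker fell. The part of these other cells in the changes reported was not tested.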

How the data were processed

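The table holds FPKM values that the authors deposited with 2 decimals for 9420 genes in 24 libraries. The counter was featureCounts (Subread 1.4.6-p3) and the genome GRCm38, per the submitters' processing notes. Not given in the sources used here: aligner, annotation, gene length, strand setting and gene selection. Deposited FPKM state no depth, which was inferred from steps of whole reads (up to 8 reads, within 0.1 read) over the coding length. FPKM are shares of a library, so a rise in some genes lowers the others.

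Gene identifiers were matched to symbols of GENCODE M21 (9412 matched, 8 not). Genes with a mean of at least 1 FPKM entered a linear model on log2(FPKM + 1) (R 4.3.3, limma 3.58.1), a pseudocount that shrinks the change of low genes. All 8 footprint libraries entered, with time as group, replicate number as block, a prior variance that follows expression, and 2 residual degrees of freedom. The interaction used the 8 footprint and 6 total RNA libraries. A gene was called at a Benjamini-Hochberg adjusted p below 0.05. Same-numbered libraries deviated together (correlations across genes 0.611, 0.522 and 0.748 between footprint groups), so the numbers were taken to pair them, from the data and not from the labels. On simulated data of 9307 genes for the 4 h against 0 h comparison, the test recovered 0% of log2 changes of 0.5, 34% of 1, 64% of 2 and 92% of 4, with 3 false among 98 calls. Only 50 genes were changed at each size, far fewer than the 4483 genes called in the data. The adjusted threshold depends on that share, so these rates do not carry over to the data.

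The members and the lists (36 of pathways, 11 of cell markers) were chosen with earlier results of these data known. Named by rule were the 12 largest called changes in each direction without overlap, up to 3 called members per pathway list in its main direction, and 20 activation genes; some of these are not described. Other genes are list or marker members given beside a result. Alternatives covered block, pseudocount, filter, scaling, prior variance, libraries fitted and each library left out.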

Additional observations from a re-analysis of the deposited data

Results flagged for a closer look

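In 3 genes the footprint change at 4 h differed from the total RNA change by the adjusted interaction test. Ccl1, a chemokine, had 324 and 144 FPKM of footprints at 4 h, against 0.87 FPKM and a listed 0 at 0 h, and total RNA of 7.80 and 3.63 FPKM at 4 h, with both 0 h libraries listed at 0. The difference was 4.63 (adjusted p = 0.0103) and depends on the pseudocount, at 3.67 (adjusted p = 0.452) with a pseudocount of 0.1.

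Rps27rt, a retrotransposed copy of a ribosomal protein gene, had 3276 and 1835 FPKM of footprints at 4 h, against 246 and 261 FPKM at 0 h, and total RNA of 1972 and 1522 FPKM at 4 h, against 1938 and 1571 FPKM at 0 h. Its difference was 3.28 (adjusted p = 0.0380; 0.0562 with a pseudocount of 0.1), and reads of the parent gene cannot be told apart from its own here.

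Nacc2, a BTB-domain transcriptional repressor, had 0.95 and 1.01 FPKM of footprints at 4 h, against 43.5 and 36.4 FPKM at 0 h, and total RNA of 0.11 and 0.11 FPKM at 4 h, against 3.60 and 3.63 FPKM at 0 h. Its difference of -2.31 (adjusted p = 0.0103) was -1.06 (adjusted p = 0.650) with a pseudocount of 0.1. Without the block none of the 3 was called, and leaving out 1 library gave adjusted p-values of 0.00467 to 0.0953 for Ccl1, 0.0273 to 0.317 for Rps27rt and 0.0243 to 0.114 for Nacc2.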

How the results depend on the processing

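The replicate block changed the counts most: without it 2340 genes were called (1134 higher, 1206 lower), and with only the 0 h and 4 h libraries and no block, a setting chosen after seeing the data, 1809 (918 higher, 891 lower). Leaving out 1 library gave 2827 to 4879 genes, 1382 to 2081 of them higher and 1445 to 2798 lower, with the fewest without the 0 h replicate 1 library. The other settings (pseudocount, filter, scaling, prior variance, only 0 h and 4 h libraries with the block) kept all 3 counts within 1.5 times, and 1608 genes were called in all 15 alternatives. Of 129 named genes 126 were called, 103 of them in every alternative; 20 lost the call without the block and 11 when 1 library was left out. Cd4, which was not called (0.02), was at -0.12 without the 4 h replicate 2 library and ranged from -0.13 without the 0 h replicate 2 library to 0.18 without the 0 h replicate 1 library.

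The 3 genes of the interaction test became 0 without the block, 0 with a pseudocount of 0.1, 33 with a pseudocount of 5, 0 at a mean of at least 5 FPKM, 9 with a constant prior variance, and 0 to 10 with 1 library left out; the cause was not tested. At these depths, genes near 0 at rest rest on a few reads. The simulated test, in which far fewer genes changed than were called here, missed most changes of 2-fold or less.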

Other observations

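The following were chosen after their values were seen, and carry no explanation. Histone cluster genes, which package newly made DNA, were a large share of the footprints at rest and a smaller one at 4 h: an estimated 5.64% and 7.75% of reads at 4 h, against 13.2% and 14.4% at 0 h. Of 60 histone genes tested none rose and 37 fell, with a median change of -1.23. Their near-identical copies make single genes uncertain. Hist1h4k had 247 and 8631 FPKM at 4 h, against 22789.5 and 17622 FPKM at 0 h (adjusted p = 0.0288 by limma, 0.135 without the block, 0.153 without the 0 h replicate 1 library and 0.0997 without the 4 h replicate 1 library). Among 222 Zfp zinc finger genes 26 rose and 49 fell, and among 138 solute carriers 46 rose and 17 fell, beside 21.4% and 26.8% for all genes.

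Oaz1, the antizyme that targets ornithine decarboxylase for degradation and is made through a ribosomal frameshift, had 20 and 65.2 FPKM of footprints at 4 h, against 441 and 244 FPKM at 0 h (log2 change -3.14 ± 0.61, adjusted p = 0.00622). Its total RNA was 130.2 and 67.7 FPKM at 4 h, against 133 and 61.4 FPKM at 0 h, and the difference between the changes was -3.20 ± 1.01 (adjusted p = 0.603). The related Oaz2 had 3.68 and 5.71 FPKM of footprints at 4 h, against 12.1 and 16.7 FPKM at 0 h (log2 change -1.44 ± 0.15, adjusted p = 0.000735).

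Gzma, a granzyme, differed by replicate number and not by time, with 857 and 15.9 FPKM at 4 h, against 714 and 12.6 FPKM at 0 h.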
